A study of Mus musculus with 5 samples.

Results

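The nuclear genes of respiratory complexes II, III, IV and V, with cytochrome c, were examined in hearts of calcineurin transgenic mice. They were chosen by symbol, as all rows for the succinate dehydrogenase subunits Sdha to Sdhd, the Uqcr genes, Cyc1, Cycs, the Cox4 to Cox8 genes and the Atp5 genes other than Atp5s and Atp5sl. This gave 46 genes of 19061 in all, with 4 in complex II, 9 in complex III, 1 for cytochrome c, 17 in complex IV and 15 in complex V. Of these, 45 had enough reads to be tested, and the exception was Cox7b2, with 1 read in JIB-04 replicate 1 and 0 in the other libraries.

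RNA sequencing covered 3 heart libraries from mice given JIB-04, an inhibitor of Jumonji histone demethylases, at 50 mg/kg, and 2 heart libraries from mice given vehicle. All mice were C57BL/6 and calcineurin transgenic (CnAtg in most titles). In the line of this kind in common use, an activated form of the phosphatase calcineurin is expressed in cardiomyocytes under an alpha myosin heavy chain promoter, and the heart enlarges. Dosing started at an age of 4 weeks and was given 3 times weekly and the hearts are from postnatal day 158. There was no group without the transgene, so every value is from a heart with the transgene. The labels name no sex, litter or batch and do not say that each library is a separate animal, so p-values measure only the spread between these libraries, which may be technical.

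Complex II (succinate dehydrogenase) passes electrons from succinate to ubiquinone, complex III hands them from ubiquinol to cytochrome c, and complex IV (cytochrome oxidase) passes them to oxygen. Complexes III and IV pump protons across the inner mitochondrial membrane, and complex V (ATP synthase) uses the resulting gradient to make ATP. Cardiomyocytes depend on this chain for most of their ATP. For some cytochrome oxidase subunits, heart and skeletal muscle use their own gene in place of the form used in most tissues. The mitochondrially encoded subunits could not be examined, since the files held 0 rows on the mitochondrial chromosome.

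Depth was similar across libraries, at 32152168 to 37002846 recovered reads, and values are given in CPM, reads scaled to the size of the library, as deposited. The 15 cardiomyocyte markers, such as Myh6 and Tnnt2, were all tested and summed to 129400, 108000 and 116900 CPM in the JIB-04 libraries, against 121800 and 137900 CPM in the vehicle libraries, so the tissue label held. Over the whole table limma called 0.0% of 14414 genes at an adjusted p under 0.05. At an unadjusted p under 0.05 it gave 928 genes, edgeR gave 946 with 0 called, limma-voom gave 872 with 0 called, and DESeq2 called 83 (0.465% of the genes higher with JIB-04 and 0.111% lower).

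No gene of complexes II to V passed limma's threshold (smallest adjusted p = 0.748), and none passed with edgeR, limma-voom or DESeq2 either. At an unadjusted p under 0.05, 3 of the 45 tested genes were lower with JIB-04 and 1 was higher, against 2.51% lower and 3.93% higher over all genes tested. The values nevertheless leaned one way, with 43 of 45 log2 fold changes (JIB-04 over vehicle, on the log2(CPM + 1) scale) below 0, against 53.1% of all genes tested. Their median was -0.11, against -0.01 for all genes, and they ran from -0.25 for Cox4i2 to 0.15 for Cox6a1. Leaving out JIB-04 replicate 1 moved the median to -0.17, with 0 genes called and 19 of the 45 lower at an unadjusted p under 0.05, against 9.0% of all genes tested in that fit. In the same fit 1 gene was higher, against 9.72% of all genes. Leaving out JIB-04 replicate 2 gave a median of -0.05, with 1 of the 45 lower at an unadjusted p under 0.05. Without JIB-04 replicate 3 the median was -0.10, with 0 of the 45 lower in this way. In those fits, in the same order, 778 and 628 of 14414 genes had an unadjusted limma p under 0.05 in either direction. Leaving out vehicle replicate 1 gave a median of -0.15, and leaving out vehicle replicate 2 gave -0.07. With the values rescaled to 1000000 per library it was -0.06, with 39 of 45 genes below 0, and the median of all genes was then 0.04.

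The lean came from JIB-04 replicates 2 and 3. JIB-04 replicate 2 lay below both vehicle libraries for 41 of the 45 genes and JIB-04 replicate 3 for 36, against 43.9% and 41.7% of all genes tested. JIB-04 replicate 1 lay below both for 8 and above both for 18, against 34.6% and 36.8% of all genes. The gene-wise median deviation from the vehicle mean was 0.02, -0.22 and -0.14 on the log2 scale in JIB-04 replicates 1, 2 and 3, against -0.04 and 0.04 in vehicle replicates 1 and 2. By this median, on the values as deposited, the groups overlapped, because JIB-04 replicate 1 sat between the vehicle libraries. Summed over the 46 genes, the level was 28156, 23819 and 25419 CPM in JIB-04 libraries, against 26829 and 28787 CPM in vehicle libraries. As a share of the reads of each library, these genes were 2.791%, 2.494% and 2.572% in JIB-04 replicates 1, 2 and 3. In vehicle replicates 1 and 2 the shares were 2.698% and 2.75%. On this scale JIB-04 replicate 1 was above both vehicle libraries and the groups overlapped too.

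**Figure D1:**
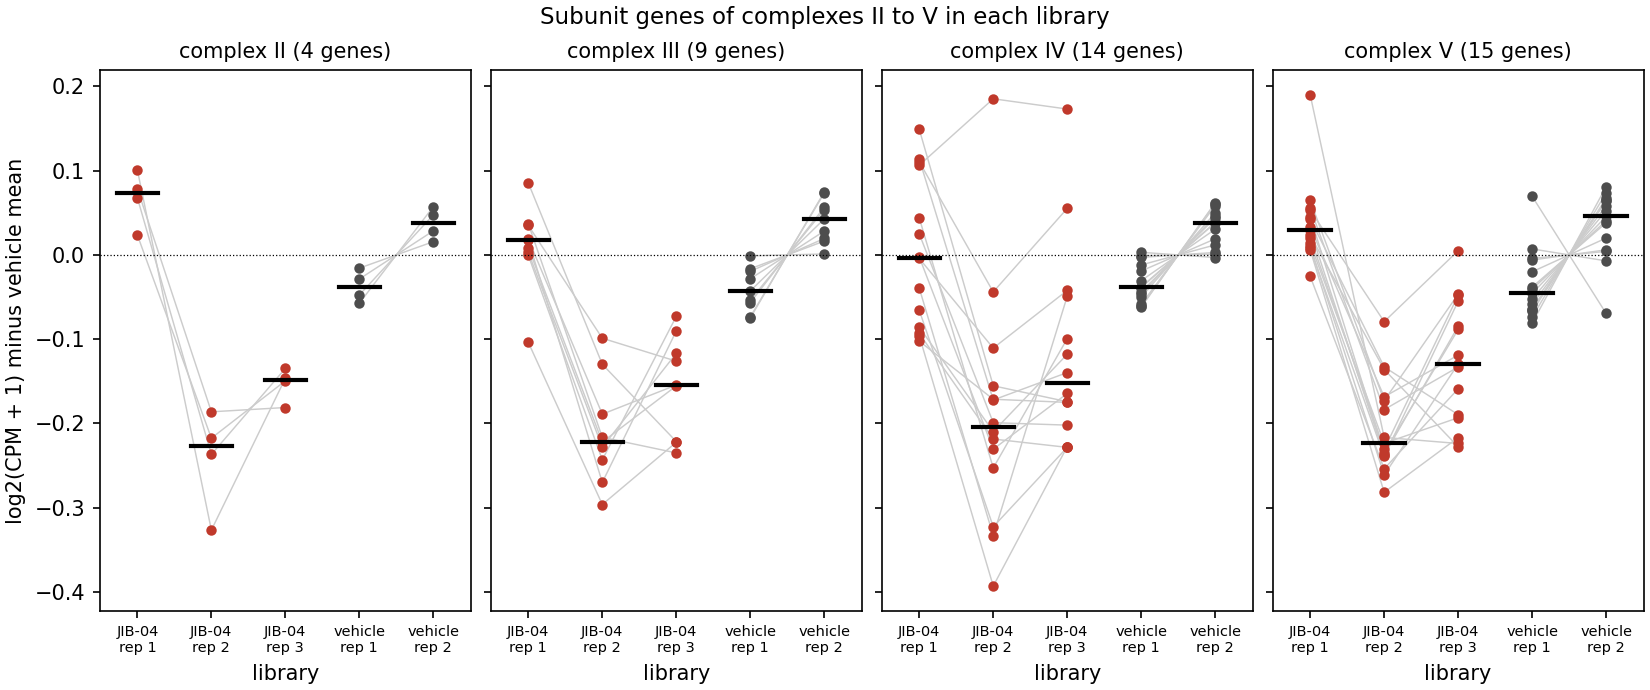
Each point is 1 gene in 1 library, for genes with a vehicle mean of at least 10 CPM, plotted as log2(CPM + 1) minus the vehicle mean of that gene, with 1 panel for each complex, bars at the median of the points and grey lines joining a gene within a group. In every panel JIB-04 replicates 2 and 3 sit mostly below 0 and JIB-04 replicate 1 sits near the vehicle libraries, while Cox6a1 of complex IV is above 0 in all 3 JIB-04 libraries.

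Cardiomyocyte markers had the same order of libraries. Their median deviation was 0.00, -0.30 and -0.14 in JIB-04 replicates 1, 2 and 3, against -0.07 and 0.07 in vehicle replicates 1 and 2. All 15 had a negative log2 fold change, with a median of -0.17. The summed level of the respiratory genes was 21.8%, 22.1% and 21.7% of the summed level of the cardiomyocyte markers in JIB-04 libraries, against 22.0% and 20.9% in vehicle libraries, so this share did not separate the groups. In bulk tissue, fewer cardiomyocytes and less RNA from these genes per cardiomyocyte cannot be told apart.

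Markers of macrophages and fibroblasts were highest in JIB-04 replicates 2 and 3, where the respiratory genes were lowest. The median deviation of 14 macrophage markers was 0.23, 0.73 and 0.88 in JIB-04 replicates 1, 2 and 3, against 0.22 and -0.22 in vehicle replicates 1 and 2. Of these markers, 12 of 14 had a positive log2 fold change and 0 were called. At an unadjusted limma p under 0.05, 9 were higher with JIB-04, against 3.93% of all genes tested. The macrophage markers summed to 364, 498 and 567 CPM in JIB-04 libraries, against 371 and 266 CPM in vehicle libraries. The 11 fibroblast markers were at 0.02, 0.40 and 0.31 in the JIB-04 libraries, against 0.05 and -0.05 in the vehicle libraries, and their sums were 3044 to 4358 CPM against 3162 and 2870 CPM. The 10 endothelial markers were at -0.16, 0.18 and -0.08, against -0.05 and 0.05, with sums of 1364 to 1731 CPM against 1468 and 1556 CPM. Smooth muscle and pericyte markers (6 tested, sums of 1115 to 1736 CPM with JIB-04 and 1643 and 1237 CPM with vehicle), skeletal muscle markers (5 of 8 tested, 2246 to 2299 CPM against 1581 and 2585 CPM) and brown fat markers (1 of 3 tested, 26.7 to 35.3 CPM against 28.8 and 36.7 CPM) overlapped between groups. All 10 red blood cell markers had negative log2 fold changes, with sums of 1796 to 3571 CPM against 7457 and 4876 CPM. Of the 10, 9 had separated groups with JIB-04 lower, against 12.0% of all genes tested. None of the markers in the files was at 0 reads in all libraries. The part of these cells in the lower respiratory gene values was not tested.

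**Figure D2:**
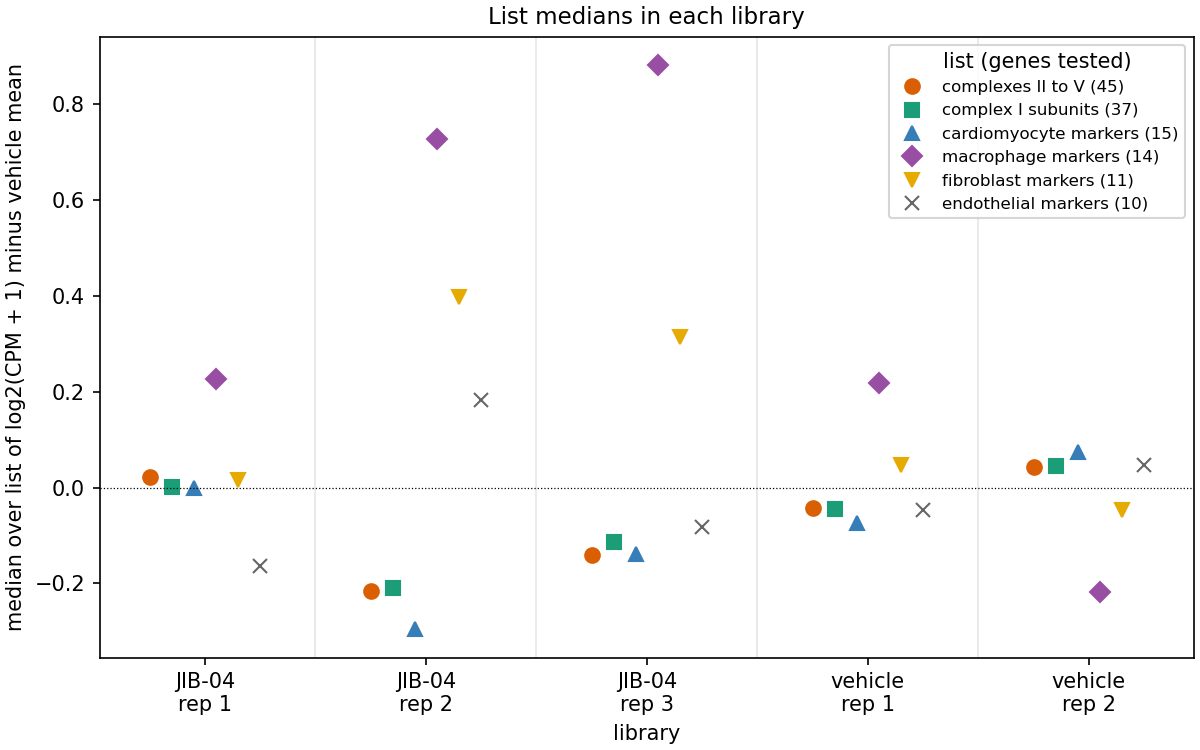
Each symbol is the median over 1 gene list of log2(CPM + 1) minus the vehicle mean, for each of the 5 libraries. The genes of complexes II to V, complex I subunits and cardiomyocyte markers lie close together in every library and are lowest in JIB-04 replicate 2, where macrophage and fibroblast markers are above 0.

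Complex II links the citrate cycle to the respiratory chain. Sdha, its flavoprotein subunit that oxidises succinate, had 1345, 1089 and 1169 CPM in JIB-04 hearts, against 1242 and 1326 CPM in vehicle hearts. Sdhb, the iron-sulfur subunit, had 616, 521 and 547 CPM with JIB-04, against 583 and 631 CPM with vehicle. For both genes JIB-04 replicate 1 was within or above the vehicle range and the other JIB-04 libraries were below it. Sdhc and Sdhd, which anchor the enzyme in the membrane, had log2 fold changes of -0.12 and -0.10, with overlapping groups. The median of the 4 genes was -0.11 and none had an unadjusted p under 0.05.

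Complex III genes gave a median of -0.11 over 9 genes, all with negative values. In 1 of them all 3 JIB-04 values were under both vehicle values, against 12.0% of all genes tested. That gene was Uqcr11, a small accessory subunit, with 245, 215 and 226 CPM in JIB-04 hearts, against 256 and 272 CPM in vehicle hearts. Its log2 fold change was -0.21 ± 0.08 (SE, limma adjusted p = 0.748), and leaving out 1 library at a time gave -0.26 to -0.16. Uqcrc1, a core subunit, had 880, 749 and 785 CPM with JIB-04, against 831 and 920 CPM with vehicle. Uqcrfs1, the Rieske iron-sulfur protein, had 561, 471 and 465 CPM with JIB-04, against 539 and 554 CPM with vehicle. Cyc1, the cytochrome c1 haem protein, had 550, 474 and 445 CPM with JIB-04, against 508 and 529 CPM with vehicle. For these 3 genes JIB-04 replicate 1 was again within or above the vehicle range and JIB-04 replicates 2 and 3 were below it. The other 5 genes, Uqcrc2, Uqcrb, Uqcrh, Uqcrq and Uqcr10, had log2 fold changes of -0.11 to -0.06.

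Cytochrome c, which carries electrons from complex III to complex IV and is encoded in the heart by Cycs, had 732, 643 and 657 CPM in JIB-04 hearts, against 654 and 740 CPM in vehicle hearts. Every JIB-04 library but replicate 2 lay inside the vehicle range. Its log2 fold change was -0.04 ± 0.10 (SE, limma adjusted p = 0.944), and it turned to 0.05 without vehicle replicate 2 and to 0.01 with values rescaled to 1000000.

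Complex V genes gave a median of -0.09 over 15 genes, all negative as deposited, and none with separated groups. Atp5a1 and Atp5b encode the alpha and beta subunits, which form the catalytic head. Atp5b had 4353, 3715 and 3968 CPM in JIB-04 hearts, against 4272 and 4595 CPM in vehicle hearts. Atp5a1 had 4379, 3607 and 3991 CPM with JIB-04, against 4032 and 4466 CPM with vehicle. Both had JIB-04 replicate 1 inside the vehicle range and the other JIB-04 libraries below it. Atp5k, the e subunit of the membrane part, had the largest difference relative to its error, with 163, 133 and 140 CPM with JIB-04, against 162 and 163 CPM with vehicle, and its log2 fold change was -0.16 ± 0.09 (SE, limma adjusted p = 0.821). Atp5d, the delta subunit of the central stalk, had the smallest, with 439, 400 and 424 CPM with JIB-04, against 400 and 447 CPM with vehicle. Its log2 fold change was -0.01 and its sign turned with the scaling and in the count tests. The other 11 genes ran from -0.13 (Atp5j2, the f subunit) to -0.05 (Atp5g2).

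The c ring of ATP synthase is encoded by 3 genes that give the same mature protein, Atp5g1, Atp5g2 and Atp5g3. Atp5g1 had 671, 600 and 563 CPM with JIB-04, against 651 and 669 CPM with vehicle. Atp5g2 had 217, 184 and 201 CPM with JIB-04, against 202 and 214 CPM with vehicle. Atp5g3 had 723, 629 and 651 CPM with JIB-04, against 679 and 736 CPM with vehicle. Their ratios overlapped between groups. The Atp5g1 to Atp5g3 ratio was 0.916 ± 0.046 (SD, n = 3) with JIB-04 and 0.934 ± 0.035 (SD, n = 2) with vehicle, and the Atp5g2 to Atp5g3 ratio was 0.301 ± 0.0081 with JIB-04 and 0.294 ± 0.0051 with vehicle.

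**Figure D3:**
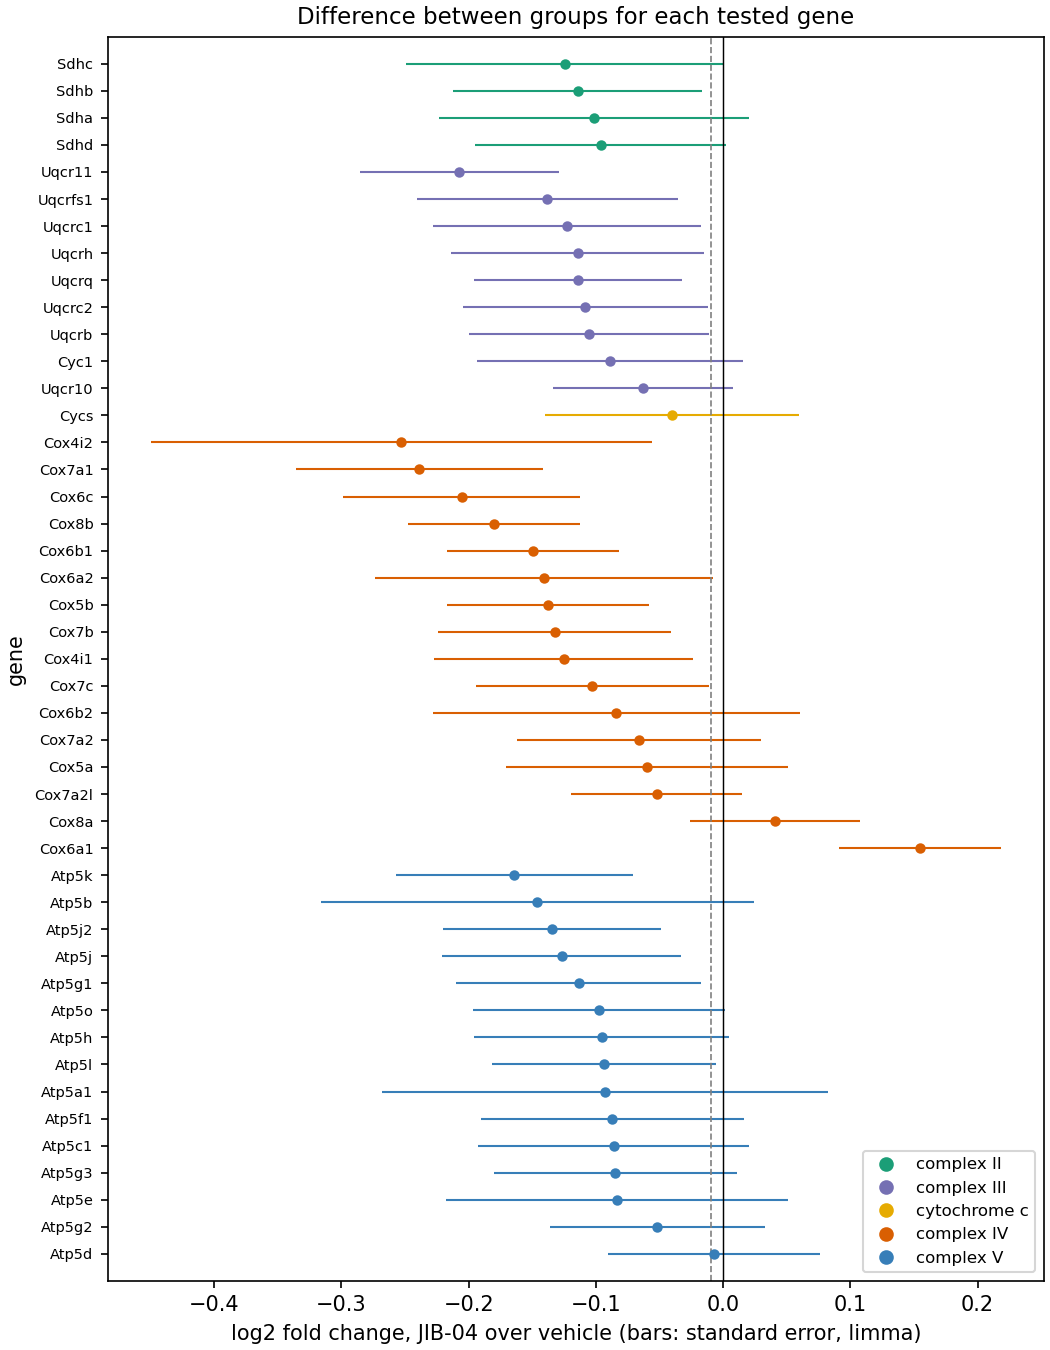
Log2 fold change of each of the 45 tested genes, JIB-04 over vehicle, with the limma standard error as bars, ordered within each complex. The dashed line marks the median of all 14414 genes tested (-0.01), and Cox6a1 and Cox8a of complex IV are the genes right of 0.

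Complex IV had the widest range of log2 fold changes. Its 16 tested genes had a median of -0.13, ran from -0.25 to 0.15, and included 5 of the 6 respiratory genes whose JIB-04 values were all under both vehicle values. Over all complexes these 6 were 13.3% of the 45 tested genes, near the 12.0% of all genes tested, and the 1 gene separated the other way, Cox6a1, was 2.22%, against 10.7%. The same 6 genes and Cox6a1 were found with DESeq2 size factors, where the shares of all genes were 11.3% and 11.5%. The same 6 were also found with values rescaled to 1000000 per library, where 6.74% of all genes tested lay lower in this way, and Cox8a then joined Cox6a1 on the higher side, where 15.4% of all genes tested lay.

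Cox4i1, the common form of the large regulatory subunit 4, had 817, 700 and 698 CPM in JIB-04 hearts, against 786 and 820 CPM in vehicle hearts. Cox5a, a subunit on the matrix side, had 463, 375 and 370 CPM with JIB-04, against 418 and 417 CPM with vehicle. In both, JIB-04 replicates 2 and 3 were below the vehicle range and JIB-04 replicate 1 was not. Cox6c and Cox5b, named after their values were seen, and Cox6b1 were separated with JIB-04 lower. Cox6c had 412, 344 and 368 CPM with JIB-04, against 419 and 442 CPM with vehicle. Cox5b, the zinc-binding subunit, had 445, 408 and 435 CPM with JIB-04, against 452 and 493 CPM with vehicle. Cox6b1, which faces the intermembrane space, had 303, 289 and 288 CPM with JIB-04, against 315 and 336 CPM with vehicle. Their log2 fold changes were -0.21, -0.14 and -0.15, and the limma adjusted p was 0.81 to 0.82. Of the other members, Cox7b, Cox7c and Cox7a2l, a factor that joins complexes III and IV, had log2 fold changes of -0.13, -0.10 and -0.05.

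Subunits 6a, 7a and 8 each come in a muscle form, encoded by Cox6a2, Cox7a1 and Cox8b in mouse, and a form of most other tissues, encoded by Cox6a1, Cox7a2 and Cox8a. For each of the 3 subunits the ratio of muscle form to partner was lower in all 3 JIB-04 libraries than in either vehicle library. This held also in JIB-04 replicate 1, where the median deviation of the respiratory genes, as deposited, was between those of the vehicle libraries. None of the differences passed a test, since 5 libraries give 10 assignments to groups of 3 and 2 and the smallest exact permutation p is 0.1.

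Promoter sequence is shown for genes of the isoform pairs because the separated ratios rest on them. None is shown for Cox6a2, the muscle partner of Cox6a1, so the promoters of that pair cannot be compared. The bases before the annotated start are shown for the isoform genes held in the RefSeq promoter table (GRCm38.p6), 250 bases each, 5′ to 3′ on the gene's strand. Capitals mark a match to one of 4 motifs searched on both strands: CCGGAAG (bound by ETS factors such as GABP), GCGCATGC (NRF1), AAGGTCA (a core bound by estrogen-related and other nuclear receptors) and TAAAAATA (MEF2). The first pair of lines are muscle genes and the rest are non-muscle genes.
Cox7a1, chr7:30183921-30184170, plus strand: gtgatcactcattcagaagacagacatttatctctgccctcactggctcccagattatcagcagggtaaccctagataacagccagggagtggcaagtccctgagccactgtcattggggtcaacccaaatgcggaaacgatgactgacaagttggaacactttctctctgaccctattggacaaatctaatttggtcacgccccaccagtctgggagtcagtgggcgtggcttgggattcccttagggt
Cox8b, chr7:140900447-140900696, minus strand: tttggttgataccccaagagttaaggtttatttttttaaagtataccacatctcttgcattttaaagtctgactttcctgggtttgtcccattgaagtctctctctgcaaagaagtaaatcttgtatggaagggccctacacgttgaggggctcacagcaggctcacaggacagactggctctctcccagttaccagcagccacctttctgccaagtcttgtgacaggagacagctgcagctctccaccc
Cox6a1, chr5:115348959-115349208, minus strand: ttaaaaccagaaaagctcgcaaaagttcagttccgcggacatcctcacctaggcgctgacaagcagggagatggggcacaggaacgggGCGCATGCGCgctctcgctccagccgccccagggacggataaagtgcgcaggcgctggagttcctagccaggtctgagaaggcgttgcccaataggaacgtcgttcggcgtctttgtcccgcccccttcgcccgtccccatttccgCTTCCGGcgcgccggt
Cox7a2, chr9:79759854-79760103, minus strand: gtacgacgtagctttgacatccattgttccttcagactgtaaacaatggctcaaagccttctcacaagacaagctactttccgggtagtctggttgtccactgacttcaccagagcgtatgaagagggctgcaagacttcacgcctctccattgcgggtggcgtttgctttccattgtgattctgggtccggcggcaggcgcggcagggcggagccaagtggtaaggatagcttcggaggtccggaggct
Cox8a, chr19:7217617-7217866, minus strand: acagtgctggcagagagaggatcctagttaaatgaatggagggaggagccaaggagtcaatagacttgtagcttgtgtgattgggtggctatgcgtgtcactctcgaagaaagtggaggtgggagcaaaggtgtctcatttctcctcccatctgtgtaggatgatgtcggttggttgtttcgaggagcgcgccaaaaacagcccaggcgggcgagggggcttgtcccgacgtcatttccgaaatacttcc

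In the 250 bases shown, Cox6a1 held 3 matches. They were overlapping NRF1 matches on both strands, starting 162 and 160 bases before the start, and a GABP match starting 16 bases before it. Cox8a, Cox7a2, Cox7a1 and Cox8b held none in these 250 bases, which says only that these letters are not there. With the 50 bases past the start included, Cox8a also held the GABP motif. The G and C share was 51.2% for Cox7a1 and 47.2% for Cox8b, and 62.8%, 54.8% and 52.8% for Cox6a1, Cox7a2 and Cox8a.

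Of the 46 genes, 35 matched the promoter table by symbol, with 38 windows of 300 bases that reach 50 bases past the start. The NRF1 motif was in 21.1% of these windows and in 2.71% of all 32851 windows. The GABP motif was in 31.6%, against 8.86% of all windows, and the nuclear receptor core in 13.2%, against 4.72%. The MEF2 motif was in 0 of 38, against 2.72% of all windows. GABP matches were found for Cox6a1, Cox8a and Cox6b1 among the isoform genes, and NRF1 matches for Cycs, Uqcrc1, Uqcr11, Sdhb, Cox6a1, Atp5g2, Atp5k and Atp5l. A match is a description of letters and not a binding site.

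Subunit 6a showed the largest difference in ratio. The muscle gene Cox6a2 (chromosome 7, 128205434 to 128206366, mm10) had 1546, 1261 and 1536 CPM in JIB-04 hearts, against 1523 and 1658 CPM in vehicle hearts. Its partner Cox6a1 (chromosome 5, 115345653 to 115348955) had 72.2, 76.3 and 75.7 CPM with JIB-04, against 64.7 and 69.4 CPM with vehicle. Cox6a2 overlapped between groups, while all 3 JIB-04 values of Cox6a1 were above both vehicle values. The log2 fold change of Cox6a1 was 0.15 ± 0.06 (SE, limma adjusted p = 0.767), and 0.11 to 0.20 when leaving out 1 library at a time. The ratio of Cox6a2 to Cox6a1 was 21.4, 16.5 and 20.3 with JIB-04, against 23.5 and 23.9 with vehicle. The mean log2 ratio differed by -0.30 (exact permutation p = 0.2, two-sided, 0.467 after Benjamini-Hochberg adjustment over 7 pairs). Without JIB-04 replicate 2 this difference was -0.18.

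Subunit 7a was the most even pair. The muscle gene Cox7a1 (chromosome 7, 30184170 to 30186030) had 180, 146 and 164 CPM with JIB-04, against 185 and 201 CPM with vehicle, so the groups did not overlap. Its log2 fold change was -0.24 ± 0.10 (SE, limma adjusted p = 0.764), and -0.31 to -0.16 when leaving out 1 library at a time. Its partner Cox7a2 (chromosome 9, 79755240 to 79759853) had 205, 168 and 172 CPM with JIB-04, against 190 CPM in each vehicle library, with overlapping groups. The ratio of Cox7a1 to Cox7a2 was 0.877, 0.870 and 0.955 with JIB-04, against 0.975 and 1.06 with vehicle. JIB-04 replicate 3 and vehicle replicate 1 were the nearest pair across the groups. The mean log2 ratio differed by -0.17 (exact permutation p = 0.2, two-sided, 0.467 adjusted), and by -0.12 without vehicle replicate 2.

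Subunit 8 had the clearest gap between groups. The muscle gene Cox8b (chromosome 7, 140898941 to 140900446) had 165, 151 and 150 CPM with JIB-04, against 174 and 178 CPM with vehicle, so the groups did not overlap here either. Its log2 fold change was -0.18 ± 0.07 (SE, limma adjusted p = 0.748), and -0.22 to -0.16 when leaving out 1 library at a time. Its partner Cox8a (chromosome 19, 7215157 to 7217616) had 141, 127 and 136 CPM with JIB-04, against 131 CPM in each vehicle library, and a log2 fold change of 0.04. The ratio of Cox8b to Cox8a was 1.17, 1.19 and 1.10 with JIB-04, against 1.33 and 1.36 with vehicle. The mean log2 ratio differed by -0.22 (exact permutation p = 0.1, two-sided, the smallest that 10 assignments allow, and 0.467 adjusted), and by -0.24 to -0.19 with 1 library left out.

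**Figure D4:**
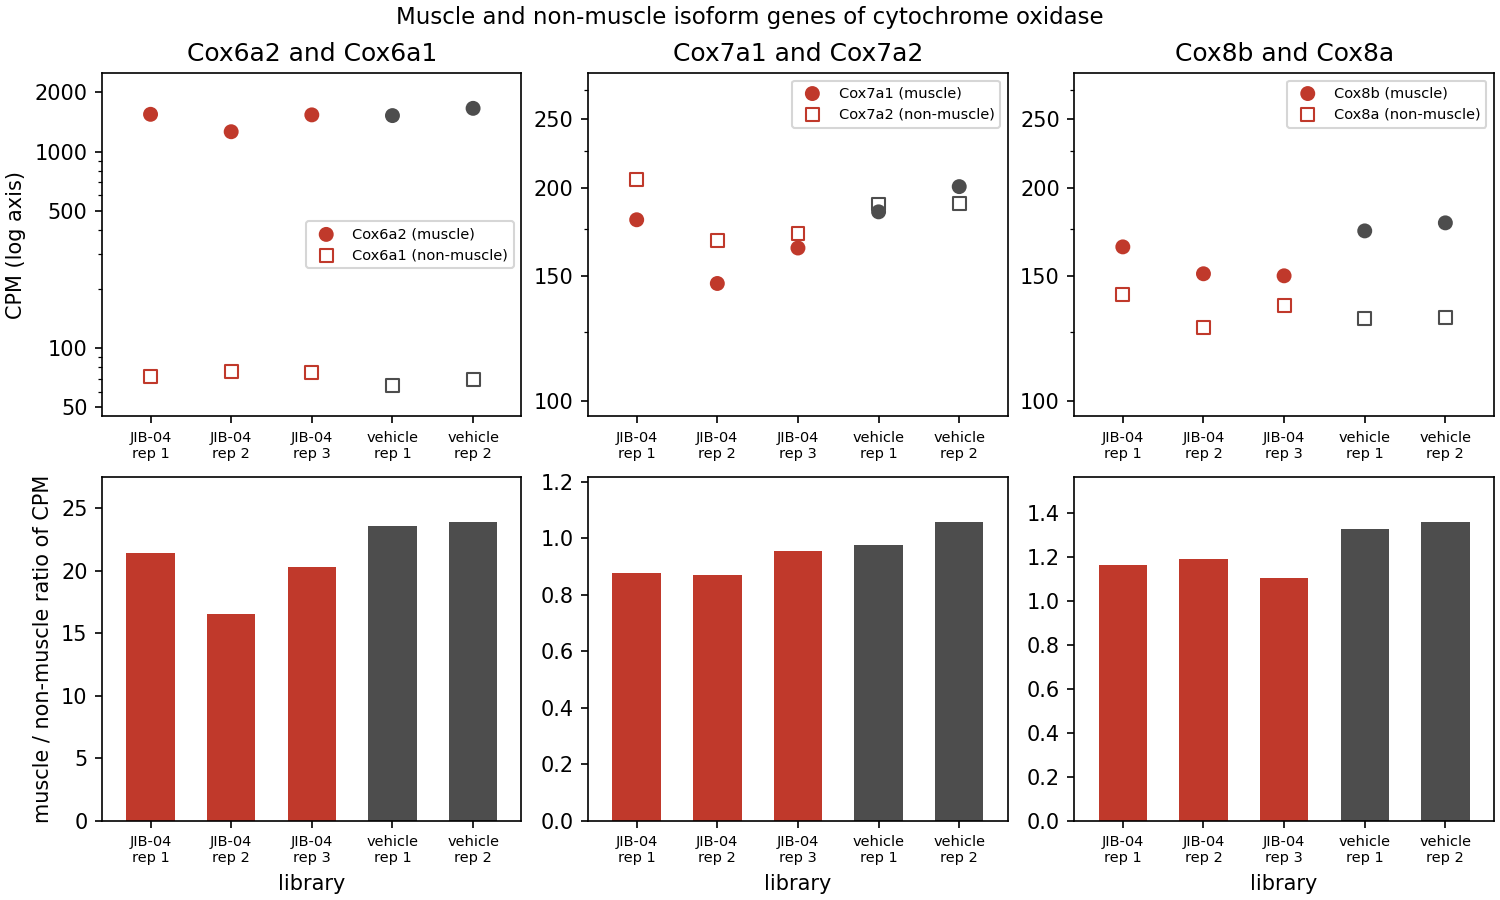
The upper panels show the level in CPM, on a log axis, of the muscle gene (filled circles) and the non-muscle gene (open squares) in each of the 5 libraries, and the lower panels show their ratio as bars from 0. In each of the 3 pairs the 3 JIB-04 bars are below both vehicle bars, with the Cox8b to Cox8a ratio at 1.10 to 1.19 with JIB-04 against 1.33 and 1.36 with vehicle.

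The 3 ratios rest on 2131 to 2849 reads of Cox6a1 per library, 47074 to 56674 of Cox6a2, and 4029 to 7054 of each of the other 4 genes. A ratio within a library does not change with the scaling of the library and describes the genes relative to each other, never which of them differs. Markers of other cells, given above, differed between these libraries. In JIB-04 replicate 1 the macrophage sum of 364 CPM was within the vehicle range of 266 to 371 CPM. The fibroblast sum of 3044 CPM was within its vehicle range of 2870 to 3162 CPM. Of single markers in this library, 7 of 14 for macrophages were above both vehicle libraries and 1 was below. For fibroblasts 3 of 11 were above both and 2 below. The shares of all genes tested were 36.8% above and 34.6% below. The macrophage median deviation was 0.23, against 0.22 and -0.22 in vehicle replicates 1 and 2. In JIB-04 replicate 1, 10 of 10 red blood cell markers and 9 of 10 endothelial markers were below both vehicle libraries. The share of all genes tested below both was 34.6%. The red blood cell sum was 1796 CPM, against 7457 and 4876 CPM, and the endothelial sum 1364 CPM, against 1468 and 1556 CPM. In JIB-04 replicates 2 and 3 the macrophage and fibroblast sums were above both vehicle libraries. The part of other cell types in the ratios was not tested in any library.

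The other isoform pairs did not separate the groups. Cox4i2, a form of subunit 4 found mainly in lung and tied to low oxygen, had 2.76, 4.85 and 3.32 CPM with JIB-04, against 4.08 and 4.82 CPM with vehicle, and its ratio to Cox4i1 overlapped (exact permutation p = 0.7). Cox6b2, the testis form of subunit 6b, had 0.36, 0.62 and 0.54 CPM with JIB-04, against 0.78 and 0.42 CPM with vehicle, or 12 to 29 reads in a library, and its ratio to Cox6b1 overlapped too (exact permutation p = 0.7). For the ATP synthase c subunit pairs given above, the exact permutation p was 0.8 for Atp5g1 to Atp5g3 and 0.4 for Atp5g2 to Atp5g3. The 3 muscle pairs were thus the pairs with separated groups among the 7. Of single genes, 12.0% were separated with JIB-04 lower and 10.7% with JIB-04 higher, and no such share was computed over other gene pairs, so nothing particular to the muscle pairs is read from this count.

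Levels of different genes were compared per length, as CPM per kilobase of exon (exon lengths of GENCODE vM21 on GRCm38, all 46 genes matched). The highest were Cox6a2, with 2129 ± 238 CPM per kilobase in JIB-04 hearts (SD, n = 3) and 2339 ± 140 in vehicle hearts (SD, n = 2), and Atp5b, with 2094 ± 168 and 2314 ± 119. Atp5a1 followed with 1375 ± 133 and 1463 ± 106, then Cox4i1 with 1058 ± 98 and 1151 ± 34. Cox6a2 and Atp5b did not differ beyond their spread. Complex II and III genes lay in a narrower band, from 270.5 (Sdhd) to 640.5 (Uqcrh) CPM per kilobase with JIB-04, and from 288 to 692 with vehicle. Within the pairs, the muscle form gave 94.2% ± 0.8 with JIB-04 and 95.2% ± 0.05 with vehicle of the 6a level per length. For 7a the muscle share was 52.6% ± 1.3 and 55.6% ± 1.4, and for 8 it was 63.8% ± 0.9 and 67.2% ± 0.4 (SD, n = 3 and n = 2). Per length, the muscle gene thus gave nearly all of the 6a RNA, and both genes gave a large share of the 7a and 8 RNA.

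**Figure D5:**
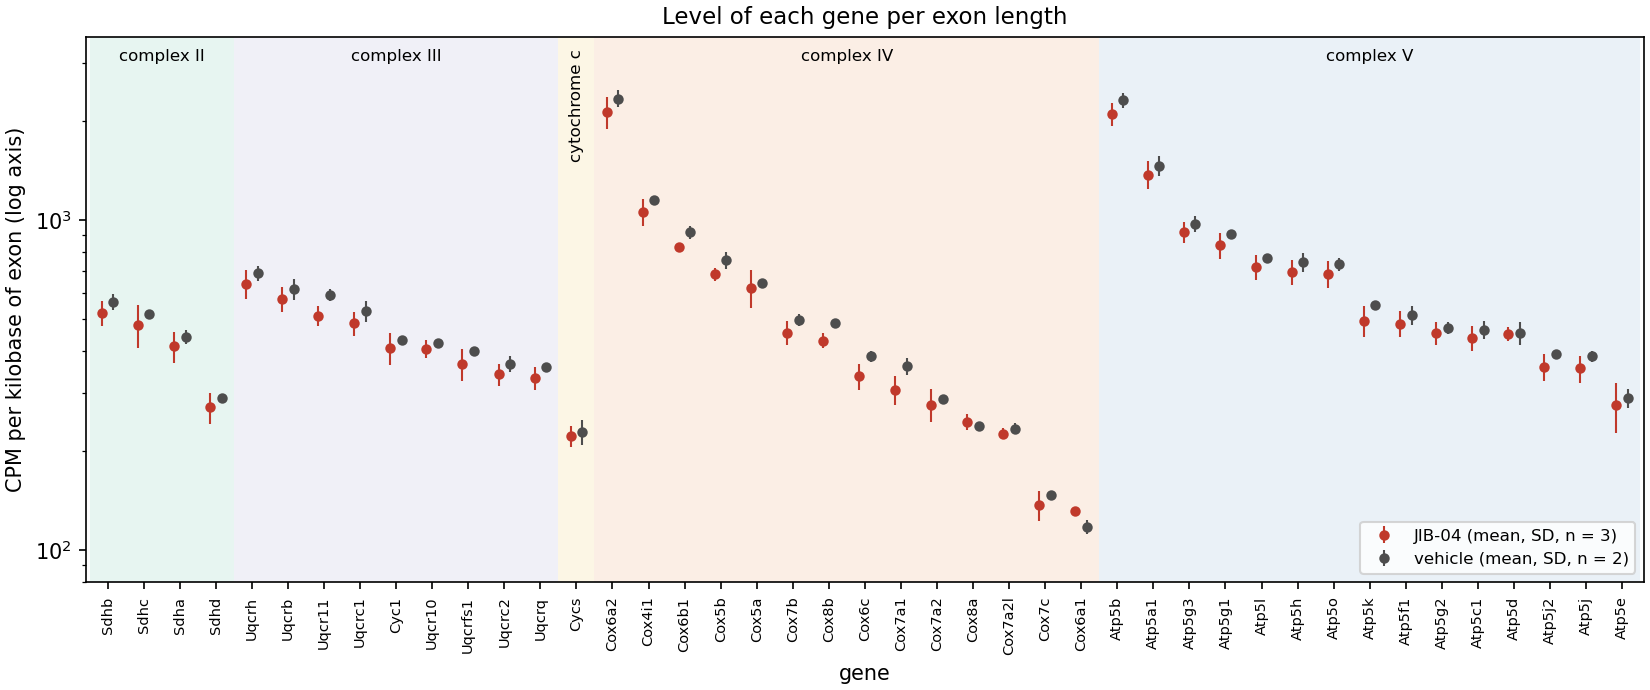
Level of each of 43 genes with a vehicle mean of at least 10 CPM, as CPM per kilobase of exon on a log axis, for JIB-04 (mean and SD, n = 3) left of vehicle (mean and SD, n = 2), grouped by complex. Cox6a2 of complex IV and Atp5b and Atp5a1 of complex V are the highest, and the vehicle symbol is above the JIB-04 symbol for all but Cox6a1 and Cox8a.

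With the median over the 45 genes subtracted in each library, which centres these genes by construction, 5 of them were separated with JIB-04 lower, against 2.84% of all genes tested after the same subtraction. These were Uqcr11, Cox6c, Cox7a1, Cox7b and Atp5b. Another 4 were separated with JIB-04 higher, against 18.5% of all genes tested, and these were Cox6a1, Cox8a, Cycs and Atp5g2. All 9 were named after their values were seen, and the subtraction used these genes themselves, so nothing is read from the counts. Relative to this median Cox6a1 was at 0.08, 0.40 and 0.31 in JIB-04 libraries, against -0.01 and 0.01 in vehicle libraries. Cox7a1 was at -0.12, -0.18 and -0.09, against -0.02 and 0.02.

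Genes that serve the same complexes were counted from lists of assembly factors. None of their members passed limma's threshold. The 22 complex IV assembly factors, such as Surf1 and Sco1, had a median log2 fold change of -0.05 with 19 negative, the 5 complex III factors -0.06 with 4 negative, and the 3 complex II factors 0.01 with 1 negative. The 5 complex V assembly and inhibitor genes had a median of -0.15, all negative. Groups were separated with JIB-04 lower for 3 of the 22 complex IV factors, 1 of the 3 complex II factors, 0 of the 5 complex III factors and 2 of the 5 complex V genes, against 12.0% of all genes tested. They were separated with JIB-04 higher for 1 complex IV factor and for 0 genes of the other assembly lists, against 10.7%. The 37 complex I subunits, tested for comparison, were all negative with a median of -0.12, and 0 were called. Of these 37, 5 were separated with JIB-04 lower, against 12.0% of all genes tested, and 3 were lower at an unadjusted p under 0.05, against 2.51%.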

How the data were processed

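RNA sequencing of mouse hearts gave 5 libraries, grouped by the treatment label into JIB-04 (3) and vehicle (2). The title of 1 JIB-04 library writes the genotype as CbAtg, but its genotype label matches the others. Per the labels, Trizol was used for extraction and a TruSeq stranded kit for the mRNA libraries. The submitters' processing notes name FastQC 0.11.2, TopHat2 2.0.12, featureCounts, Subread, edgeR and Picard 1.127, and build mm10, with no role or order. How reads shared with pseudogenes were counted is not given in the sources used here, so genes with processed copies, such as Cycs, are uncertain. The deposited values are a normalised signal headed CPM, and since the columns summed to 954981 to 1046902 they are not plain CPM. Low values stepped by the worth of 1 read, and dividing by it gave whole numbers for 100% of values (within 0.01). These recovered reads served the count tests. In CPM, 3 reads came to 0.0804 to 0.0977, for counting error only. The blank row (1 in each file) was left out.

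edgeR's filterByExpr (4.0.16, at least 10 reads and 15 in total) kept 14414 genes. The comparison was JIB-04 over vehicle, with limma (3.58.1, R 4.3.3) with a mean-variance trend on log2(CPM + 1), Benjamini-Hochberg adjustment over all genes tested and a threshold of 0.05, with 3 residual degrees of freedom. Fold changes on this scale understate those of low genes. edgeR, limma-voom and DESeq2 (1.42.0) on recovered reads were alternatives, with other pseudocounts (0.1 and 0.5), filters and scalings, a replicate block and each library left out. Of these, limma and edgeR were also run on simulated data, with differences larger than those of the respiratory genes. Differences as small as theirs were not simulated, and limma-voom and DESeq2 were not run on simulated data. Isoform log2 ratios, of CPM + 1, were compared with an exact two-sided permutation test. Exon lengths came from protein-coding transcripts within 50 bases of the deposited gene span, or cut to it for 7 genes. Every member is accounted for. Those given library by library are the isoform pairs, 10 core subunits fixed by name and, in each complex, the genes with the largest and smallest difference relative to its error. Cox6c and Cox5b were added after their values were seen. The members, lists and pairs were chosen with earlier results of these data known.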

Additional observations from a re-analysis of the deposited data

How the results depend on the processing

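Leaving out 1 library at a time and the other 10 alternatives left the number of respiratory genes called at 0 in each case. The count over all genes was 0 in every setting but DESeq2, which called 83, and the fits without 1 library, which gave 0 to 29 (29 without JIB-04 replicate 1). The median log2 fold change of the respiratory genes was -0.17 to -0.05 over the fits without 1 library. Signs of single genes turned in 13 cases, with 0 called. Atp5d was at 0.0025 with edgeR, 0.0026 with limma-voom, 0.0019 with DESeq2, 0.0020 with DESeq2 size factors and 0.0456 with values rescaled to 1000000, where Atp5g2 was at 0.0008, Cox7a2l at 0.0002 and Cycs at 0.0122. Over the fits without 1 library, Atp5d ran from -0.088 to 0.074, Atp5g2 from -0.1097 to 0.009, Cycs from -0.1293 to 0.0485 and Cox6b2 from -0.2451 to 0.077. The differences of the 3 muscle ratios kept their sign in every setting. Scaling of a library leaves a ratio unchanged but for the pseudocount, so the scaling settings say little here. With at most 10 assignments the exact p could not fall under 0.1 in any setting. Over the fits without 1 library the Cox4i2 to Cox4i1 difference ran from -0.3435 to 0.0873, Cox6b2 to Cox6b1 from -0.1417 to 0.2727 and Atp5g1 to Atp5g3 from -0.0672 to 0.0113. The Cox6b2 to Cox6b1 difference was -0.0708 with no pseudocount and -0.0389 with a pseudocount of 0.1. The causes were not tested.

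The groups share replicate numbers 1 and 2 only. The deviations of same-numbered libraries correlated at -0.133 for number 1 and -0.135 for number 2, over 14414 genes. The deviations of the 2 vehicle libraries mirror each other. These correlations therefore cannot show whether a number stands for a shared batch or litter, and the labels do not say. With the replicate block, 0 genes and 0 respiratory genes were called (smallest adjusted p over the respiratory genes 1.0), 532 genes had an unadjusted p under 0.05, and the respiratory median was -0.10. This fit has 1 residual degree of freedom and gives the differences obtained without JIB-04 replicate 3, among them 0.0113 for Atp5g1 to Atp5g3. Cox6b2 and Cox7b2 rest on few reads, at most 29 and 1 in a library.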
